A study of Mus musculus with 12 samples.

Results

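The genes described here encode the machinery that brings nuclear-encoded proteins into mitochondria. They were chosen by symbol among the protein-coding genes of the deposited table: every Timm and Tomm gene whose symbol goes on with a number, plus Pam16, Dnajc19, Grpel1, Grpel2, Samm50, Mtx1, Mtx2, Chchd4, Gfer, Pmpca and Pmpcb. This gave 36 of the 34866 genes in the table, of which 21850 are annotated as protein-coding. RNA was sequenced from 12 libraries of mouse embryonic fibroblasts (MEFs), 3 for each pairing of sex (male or female) with genotype (WT or KO). WT cells were Sirt3+/+ and of the strain 129S1/SvImJ, and KO cells carried Sirt3-/-, a germline loss of Sirt3, the main deacetylase of the mitochondrial matrix. All groups came from embryos aged 13 days, were immortalized with a stably transfected plasmid that, by the study's methods, carried the SV40 T antigen, and were collected at passage 6, 48 h after seeding. The cells were seeded in triplicate and the number of embryos or lines behind each group is not given in the sources used here, so a difference between groups cannot be told apart from one between cell lines, and p-values measure the spread between these libraries, which may be technical. The comparisons ask how the import genes differed between KO and WT in each sex, whether that difference was the same in both sexes, and how the sexes differed within a genotype.

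The value given for each gene is TPM, the share of a gene among all transcripts of a library after scaling for transcript length and to a fixed total, so levels can be compared between genes. The depth behind the TPM is unknown. Sirt3 mRNA itself was between 6.59 and 9.07 TPM in WT and between 7.57 and 11.0 TPM in KO libraries, and was not lower in the libraries labelled KO. A value over the whole gene does not test a deletion that leaves part of the transcript in place, and KO below means a library so labelled. A list of 10 fibroblast markers summed to between 7937 and 12126 TPM in every library, although Lum, one of them, reached no more than 0.489 TPM. The sum was higher in KO (from 11429 to 12126 in male KO against 9087 to 10204 in male WT, and from 9710 to 10044 in female KO against 7937 to 8124 in female WT). Epithelial, endothelial, blood and muscle markers, 4 of each, summed to at most 15.7 TPM. The 4 neural markers summed to between 89.0 and 180 TPM, with Sox10 at or under 0.0404 TPM. Their sum was lower in KO, from 89.0 to 104 TPM in male KO against 126 to 131 in male WT and from 102 to 119 in female KO against 169 to 180 in female WT. The epithelial, endothelial and muscle sums were also lower in every KO library than in the WT libraries of the same sex, while the blood sums overlapped. Not every marker followed its sum. The fibroblast markers Col1a2, Pdgfra, Vim, Fn1 and Lum overlapped between WT and KO in males, and Vim and Lum did in females. The other fibroblast markers were higher in KO, among them Col1a1 (2937 to 3348 TPM in male WT and 4627 to 5047 TPM in male KO). The neural marker Tubb3 was higher in male KO (12.1 to 13.9 TPM) than in male WT (9.89 to 10.5 TPM). The muscle marker Acta1 overlapped in females (6.92 to 9.07 TPM in WT and 7.75 to 9.67 TPM in KO). The part of these shifts in the results below was not tested.

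Most mitochondrial proteins are made in the cytosol and pass the outer membrane through the TOM complex, whose channel is Tomm40. Proteins with a presequence then cross the inner membrane through the TIM23 complex, pulled by a motor on its matrix side, and the presequence is cut off by the mitochondrial processing peptidase (MPP). Carrier proteins are guided by small TIM chaperones to the TIM22 complex, beta-barrel proteins are inserted into the outer membrane by the SAM complex, and cysteine-rich proteins of the intermembrane space are trapped by the MIA disulfide relay.

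Promoter sequences are shown first for the outer membrane and peptidase genes that were lower in male KO. RefSeq (build GRCm38.p6) held the promoter of 32 of the 36 genes, read from 250 bases before the start of the transcript to 50 after it. The letters CCGGAAG, the core that ETS-family factors bind, were found on either strand in 14 of these 32 promoters (43.8%), against 20.8% of the 9396 promoters of genes tested and 9.93% of all 27025 promoters. The NRF1 core GCGCANGCG, known from many nuclear genes for mitochondrial proteins, was found in 15.6% of the import promoters and 15.9% of those of the genes tested. The cyclic AMP response element TGACGTCA was in 0 of 32 (3.69% of genes tested), as was TGATGNAA, the core shared by ATF4 and CEBP factors (2.62%). The YY1 core AAGATGG was in 12.5% against 8.55%, the ERR core AAGGTCA in 9.38% against 3.54%, and the hypoxia response core ACGTG in 21.9% against 29.6%. These shares are descriptions, not tests, and a match is not a bound site. The 250 bases before the start follow, with matches to CCGGAAG on either strand in capitals:
Tomm22, chr15:79670618-79670867, plus strand: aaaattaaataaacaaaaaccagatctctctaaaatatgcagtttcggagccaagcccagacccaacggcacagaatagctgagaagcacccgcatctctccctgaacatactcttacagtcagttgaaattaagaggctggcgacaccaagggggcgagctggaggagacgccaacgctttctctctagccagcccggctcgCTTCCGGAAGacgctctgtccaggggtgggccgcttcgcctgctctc
Tomm70a, chr16:57121464-57121713, plus strand: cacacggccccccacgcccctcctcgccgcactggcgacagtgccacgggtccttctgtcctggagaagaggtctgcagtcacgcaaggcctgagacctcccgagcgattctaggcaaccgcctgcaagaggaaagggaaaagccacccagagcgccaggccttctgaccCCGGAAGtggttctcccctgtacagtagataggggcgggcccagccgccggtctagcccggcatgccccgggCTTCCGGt
Pmpca, chr2:26389098-26389347, plus strand: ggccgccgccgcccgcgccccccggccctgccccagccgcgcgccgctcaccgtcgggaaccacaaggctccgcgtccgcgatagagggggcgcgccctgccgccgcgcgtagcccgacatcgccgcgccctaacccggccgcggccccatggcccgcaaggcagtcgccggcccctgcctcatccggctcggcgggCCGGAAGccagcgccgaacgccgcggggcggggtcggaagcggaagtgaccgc
Pmpcb, chr5:21736910-21737159, plus strand: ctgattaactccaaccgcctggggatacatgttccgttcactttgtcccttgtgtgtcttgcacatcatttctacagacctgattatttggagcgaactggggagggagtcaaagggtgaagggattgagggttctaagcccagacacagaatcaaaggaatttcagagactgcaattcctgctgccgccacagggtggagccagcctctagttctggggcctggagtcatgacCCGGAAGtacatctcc
Tomm5, chr4:45108114-45108363, minus strand: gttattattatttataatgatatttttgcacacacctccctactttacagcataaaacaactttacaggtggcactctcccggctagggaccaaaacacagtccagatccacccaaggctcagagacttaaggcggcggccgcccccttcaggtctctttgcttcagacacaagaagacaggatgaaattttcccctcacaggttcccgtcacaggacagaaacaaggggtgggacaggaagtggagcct
Tomm40, chr7:19715430-19715679, minus strand: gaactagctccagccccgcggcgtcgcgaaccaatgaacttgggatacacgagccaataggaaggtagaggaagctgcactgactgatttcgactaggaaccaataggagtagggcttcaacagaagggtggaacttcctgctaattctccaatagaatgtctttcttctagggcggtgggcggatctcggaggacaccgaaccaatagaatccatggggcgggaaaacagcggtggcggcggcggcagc
Tomm22 holds overlapping matches on the 2 strands that begin 47 and 44 bases before the start, Tomm70a holds matches at 80 and 8 bases, Pmpca at 53 bases and Pmpcb at 16 bases before it. Tomm5 and Tomm40, which were also lower in male KO, hold no match in this window. Timm17a and Pam16, called lower in male KO as well and not printed here, hold none either. From 250 bases before the start to 50 after it, 4 of the 8 genes called lower held a match. Among all 32 import promoters it was 14 (43.8%).

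Of the 36 genes, 34 averaged at least 1 TPM across the 12 libraries and were tested. Timm8a2, a testis-type relative of Timm8a1, lay between 0 and 0.319 TPM and Tomm20l, a relative of Tomm20, between 0 and 0.689 TPM. The 36 genes lay on 18 chromosomes, with Timm17b and Timm8a1 on X. Import genes were expressed at high levels: the median of their means was 72.0 TPM against 22.3 TPM for all 12504 genes tested, and 32 of the 34 lay above that median. Means ran from 13.5 TPM for Chchd4, the oxidoreductase of the MIA relay, to 323 TPM for Tomm6, a small subunit of the TOM complex.

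Between male KO and male WT, more import genes were lower than higher. By limma on log2(TPM + 1) with Benjamini-Hochberg adjustment over all genes tested, 8 of the 34 were lower and 1 was higher in KO at an adjusted p under 0.05, where 10.9% of all genes tested were lower and 10.7% were higher. One of the 8, Pam16, did not pass once a gene that shares part of its sequence was added to it, which left 7. The number called in either direction was 2 without male WT replicate 3 and from 3 to 7 without each of the other 5 libraries. Of all 12504 genes tested, 1813 were called without male WT replicate 3 and from 1855 to 2318 without each of the others, against 2707 with all libraries. Without regard to the test, 25 of the 34 had a negative log2 fold change, as had 6570 of all 12504 genes tested. The median over the 34 was −0.11 against −0.02 for all genes tested. KO libraries all lay below the WT libraries for 15 of the 34 genes and above them for 1, against 21.2% and 18.8% of all genes tested. In females 1 gene was lower and 1 was higher, where 5.84% and 5.63% of all genes tested were, and the median log2 fold change was −0.08 against −0.02 for all genes tested. Female KO libraries lay below female WT for 5 of the 34 genes and above them for 3, against 18.7% and 14.9% of all genes tested.

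**Figure D1:**
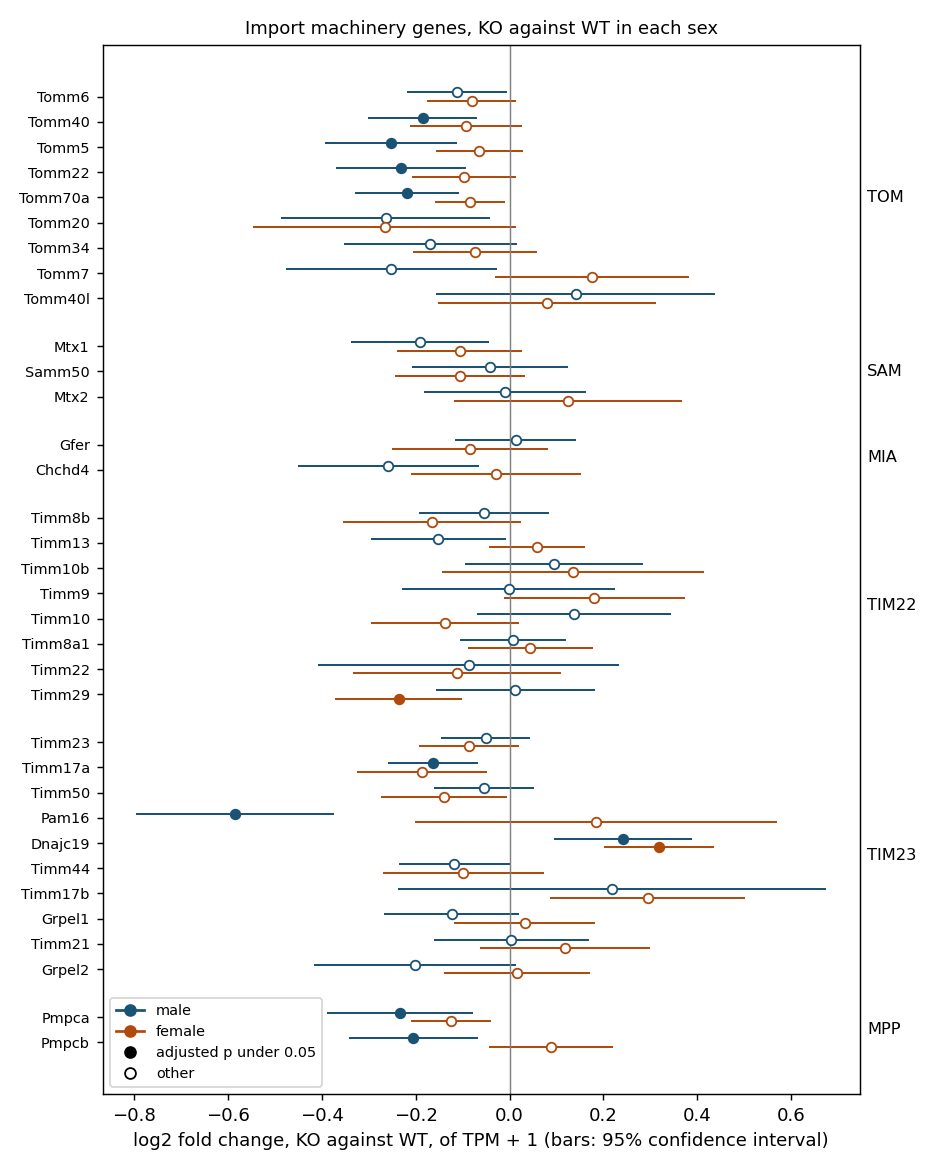
Log2 fold change of KO against WT on the log2(TPM + 1) scale (x axis) for the 34 import genes tested (y axis, by group and by falling level within a group), with males in blue and females in orange. Bars are 95% confidence intervals and filled points have an adjusted p under 0.05. Most male points lie left of 0, Pam16 stands farthest left at −0.59, and Dnajc19 is filled on the right in both sexes.

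Summed over all 36 genes, the import mRNAs made up 3666, 3661 and 3643 TPM in male WT and 3372, 3310 and 3378 TPM in male KO. The female libraries held 3682, 3540 and 3581 TPM in WT and 3489, 3448 and 3456 TPM in KO. In both sexes every KO library lay below every WT library. The 10 TOM genes stood at 1309 ± 13.2 TPM in WT and 1151 ± 33.9 TPM in KO (SD, n = 3 each), and at 1271 ± 37.7 and 1197 ± 18.8 TPM in females (SD, n = 3 each). The 2 MPP subunits summed to 189 ± 9.65 TPM in male WT and 162 ± 5.95 TPM in male KO (SD, n = 3 each), with no such gap in females (186 ± 2.82 and 183 ± 7.33 TPM, SD, n = 3 each). The 9 TIM22 and small TIM genes summed to 748 ± 19.6 TPM in male WT and 734 ± 3.39 TPM in male KO (SD, n = 3 each), and these groups overlapped. No test was made of the sums.

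**Figure D2:**
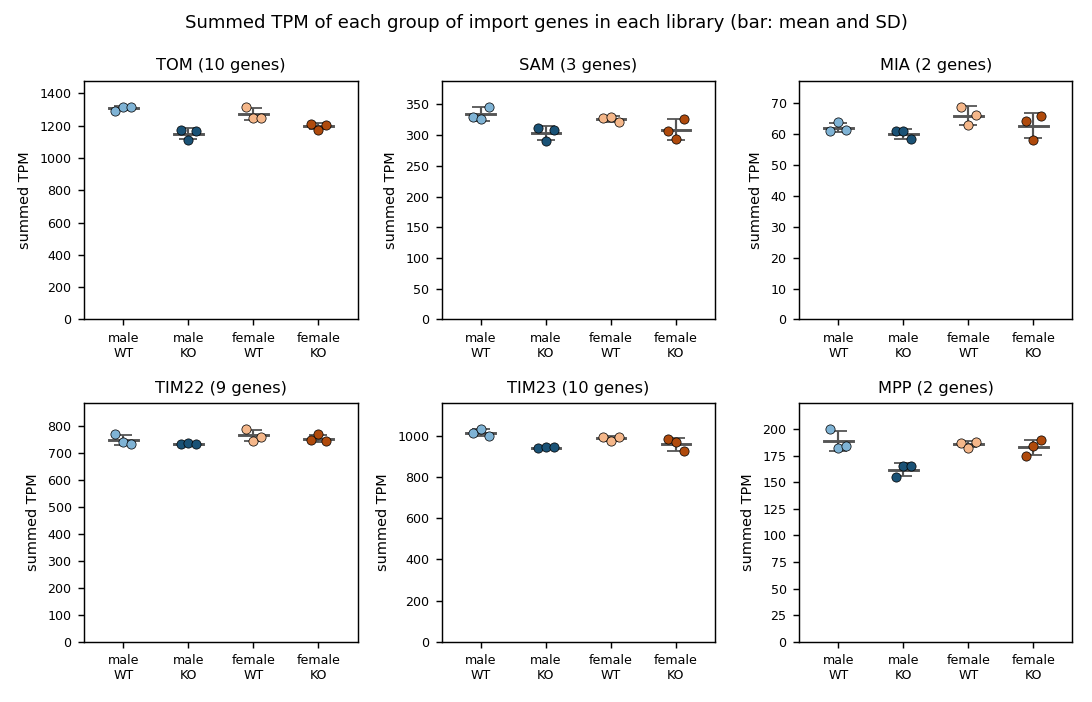
Summed TPM (y axis, from 0) of the TOM, SAM, MIA, TIM22, TIM23 and MPP genes in each of the 4 groups (x axis). Points are libraries and bars the mean and SD of 3. The TOM sum is lower in KO in both sexes, the MPP sum is lowest in male KO, and the TIM22 sums of male WT and male KO overlap.

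In the TOM complex, 4 of the 9 genes tested fell in male KO and none rose, where 10.9% of all genes tested fell and 10.7% rose. The median log2 fold change was −0.22 over the 9 and −0.02 over all genes tested. In female KO none of the 9 passed the test, with a median of −0.08, where 5.84% of all genes tested fell and 5.63% rose. An unadjusted p under 0.05 was seen for 1 of the 9 and for 3399 of all 12504 genes tested. The interaction, which is the male difference minus the female difference, passed for none of the 9 either. It had an unadjusted p under 0.05 for 3 of the 9 and for 3147 of all 12504 genes tested. The fall is therefore not shown to differ between the sexes.

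Tomm70a (ENSMUSG00000022752.8, chr16:57121703-57156705, plus strand of GRCm38) is the receptor that takes carrier precursors from cytosolic chaperones. Its TPM were 118, 110 and 110 in male WT and 94.8, 98.8 and 96.7 in male KO, against 114, 112 and 113 in female WT and 106, 106 and 108 in female KO. KO libraries were all below WT in both sexes, and the male KO libraries were the lowest of the 12. The log2 fold change was −0.22 in males (SE 0.046, adjusted p = 0.0152 by limma) and −0.08 in females (SE 0.031, adjusted p = 0.131). The male call was lost without male KO replicate 1 or 3 (adjusted p up to 0.0521).

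Tomm22 (ENSMUSG00000022427.4, chr15:79670861-79673400, plus strand of GRCm38) is the central receptor that joins the presequence receptors to the channel. It stood at 187, 179 and 185 TPM in male WT and 144, 160 and 166 TPM in male KO. Female libraries were at 179, 171 and 178 TPM in WT and 157, 162 and 175 TPM in KO. The male groups did not overlap and the female groups did. Its log2 fold change was −0.23 in males (SE 0.057, adjusted p = 0.0287 by limma) and −0.10 in females (SE 0.046, adjusted p = 0.233). The male call was lost without male WT replicate 1, 2 or 3 or male KO replicate 2 (adjusted p up to 0.0883).

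Tomm40 (ENSMUSG00000002984.17, chr7:19701313-19715438, minus strand of GRCm38), the channel itself, was at 228, 250 and 244 TPM in male WT and 212, 203 and 218 TPM in male KO. In females it was at 239, 219 and 224 TPM in WT and 226, 206 and 208 TPM in KO. The male KO libraries lay below all male WT libraries, while the female groups overlapped. Tomm40 changed by −0.19 on the log2 scale in males (SE 0.048, adjusted p = 0.0336 by limma) and −0.09 in females (SE 0.049, adjusted p = 0.285). Tomm40 passed in males only when male WT replicate 1 was the library left out, with an adjusted p of up to 0.105 without another. Its less expressed paralog Tomm40l held 28.9, 38.7 and 34.6 TPM in male WT and 37.2, 33.4 and 42.1 TPM in male KO, with 33.4, 29.2 and 29.9 TPM in female WT and 32.1, 29.3 and 36.9 TPM in female KO. Tomm40l did not pass in either sex, with log2 fold changes of 0.14 and 0.08. Tomm40 made up 86.6% to 88.8% of the pair in male WT and 83.8% to 85.9% in male KO. In females it made up 87.7% to 88.2% in WT and 84.9% to 87.6% in KO, so the share was lower in KO in both sexes.

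Tomm5 (ENSMUSG00000078713.8, chr4:45105208-45108114, minus strand of GRCm38), a small subunit that steadies the channel, was at 194, 195 and 213 TPM in male WT and 173, 157 and 175 TPM in male KO. Female WT libraries were at 192, 180.3 and 180.4 TPM and female KO libraries at 172, 177 and 179.8 TPM. The male gap was wide, and the female groups were separated by less than 1 TPM. The log2 fold change was −0.25 in males (SE 0.059, adjusted p = 0.0228 by limma) and −0.06 in females (SE 0.038, adjusted p = 0.328). The male call was lost without male WT replicate 3 or male KO replicate 2 (adjusted p up to 0.0726).

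The other TOM genes did not pass the test in either sex. Tomm20, the presequence receptor, stood at −0.26 on the log2 scale in males (adjusted p = 0.0918 by limma) and −0.27 in females (adjusted p = 0.201). Summed with its copies, of which the pseudogene Gm14494 had a mean of 2.38 TPM, it stood at −0.33 and −0.28 (adjusted p = 0.0836 and 0.196). Tomm7, a small subunit known for its part in holding PINK1 at the outer membrane, had −0.25 in males and 0.18 in females, with an interaction of −0.43 (adjusted p = 0.0599 by limma). Tomm6 and Tomm34, a cytosolic cochaperone named with the complex, had −0.11 and −0.17 in males and −0.08 and −0.07 in females.

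**Figure D3:**
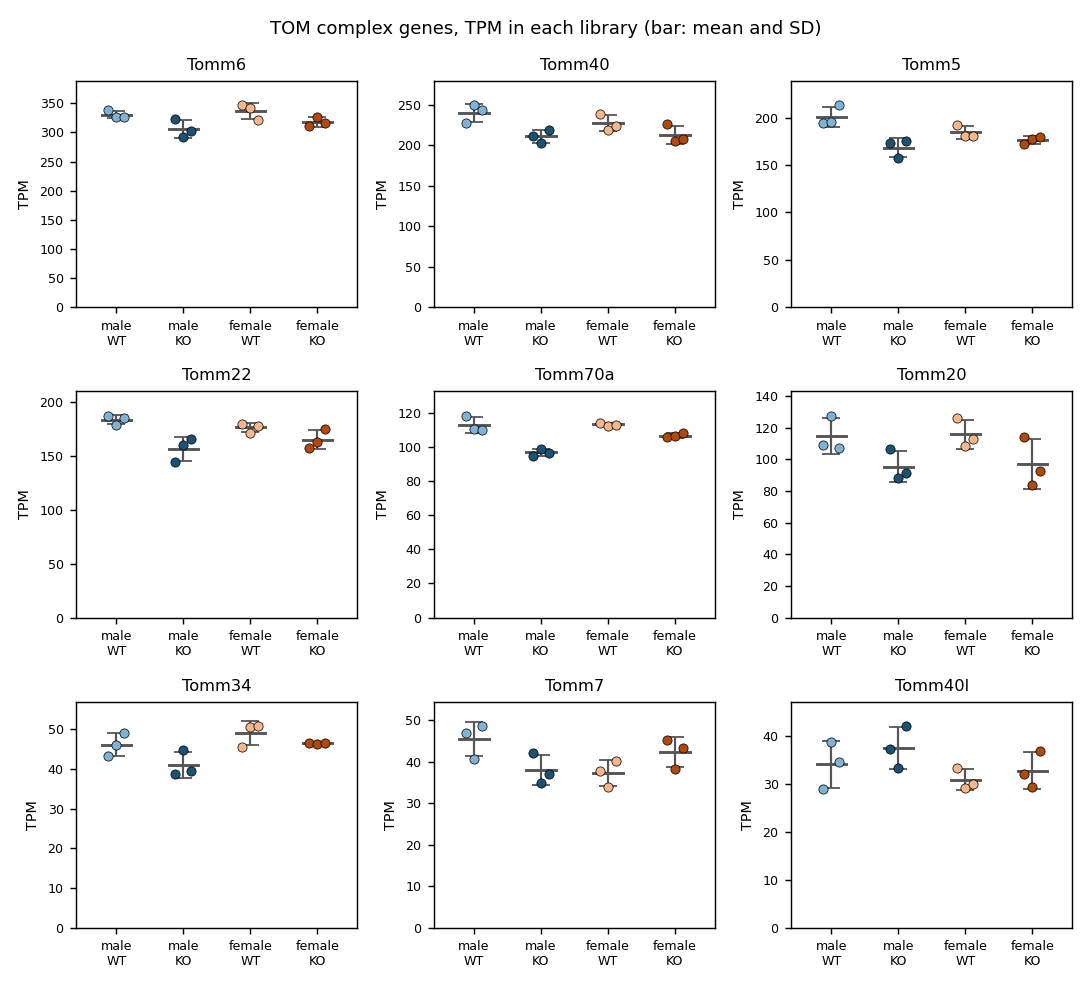
TPM (y axis, from 0) of the 9 TOM genes tested in the 12 libraries, by group (x axis). Points are libraries and bars the mean and SD of 3. Male KO points lie below all male WT points for Tomm6, Tomm40, Tomm5, Tomm22, Tomm70a and Tomm20.

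In the TIM23 complex and its motor, 2 of 10 genes fell and 1 rose in males, where 10.9% of all genes tested fell and 10.7% rose. With identical copies summed, 1 fell, since Pam16 no longer passed. In females 1 of the 10 rose and none fell by limma, where 5.63% of all genes tested rose and 5.84% fell. There 4 of the 10 had an unadjusted p under 0.05 in either direction, as had 3399 of all 12504 genes tested. Dnajc19 (ENSMUSG00000027679.13, chr3:34056020-34081321, minus strand of GRCm38), the J-domain cochaperone of the import motor, was at 64.3, 70.3 and 64.7 TPM in male WT and 84.1, 75.5 and 76.7 TPM in male KO. In females it was at 52.9, 48.7 and 52.6 TPM in WT and 64.7, 62.8 and 65.4 TPM in KO. KO libraries were above WT libraries in both sexes, and male libraries were above female libraries in both genotypes. The log2 fold change was 0.24 in males (SE 0.062, adjusted p = 0.0319 by limma) and 0.32 in females (SE 0.048, adjusted p = 0.0096), and the interaction of −0.08 did not pass (95% confidence interval −0.25 to 0.10, adjusted p = 0.615). The female call held without any 1 of the 6 libraries, while the male call was lost without replicate 1 or 3 of either male group (adjusted p up to 0.103). Dnajc19 shares 178 of its 4027 exon bases with Fxr1 on the opposite strand, and Fxr1 was lower in male KO (log2 fold change −0.18, adjusted p = 0.0268 by limma) and at 0.02 in females. Whether reads were counted by strand is not given in the sources used here, and the part of Fxr1 in the values was not tested.

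Pam16 (ENSMUSG00000014301.13, chr16:4616464-4624988, minus strand of GRCm38), the J-like partner that holds Dnajc19 at the motor, had the largest fold change among the import genes when taken alone. A transcript of Pam16 shares most of its sequence with another gene. The TPM of Pam16 were 122, 134 and 106 in male WT and 83.0, 82.2 and 74.2 in male KO. They were 104, 121 and 85.6 in female WT and 125, 134 and 95.4 in female KO. The male groups did not overlap, and the log2 fold change was −0.59 in males (SE 0.089, adjusted p = 0.00432 by limma) and 0.18 in females (SE 0.16, adjusted p = 0.511). The interaction of −0.77 passed (SE 0.20, adjusted p = 0.0257 by limma). The male call held without any 1 of the 6 libraries, and the interaction was lost without male WT replicate 1 or 2, male KO replicate 3, female WT replicate 3 or female KO replicate 1 or 2 (adjusted p up to 0.0623).

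A run of 534 bases in a 596-base transcript of Pam16 is identical in Gm9803. The exons of Pam16 cover 2435 bases in all. Gm9803 is a gene of 1 exon on chromosome 10 that the annotation lists as protein-coding. The run covers most of the 563 bases of the Gm9803 transcript. The first 60 coding bases of Pam16, which stand in its exons 1 and 2 on the minus strand of chromosome 16 (GRCm38, chr16:4624851-4624853 and chr16:4617947-4618003), and the same letters in Gm9803 (chr10:43524168-43524227, plus strand) are shown from the GENCODE transcripts, with the start codon in capitals:
Pam16: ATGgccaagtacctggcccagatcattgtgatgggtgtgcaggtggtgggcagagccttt
Gm9803: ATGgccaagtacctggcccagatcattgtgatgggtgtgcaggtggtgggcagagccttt
Gm9803 was at 4.94, 0.000301 and 40.5 TPM in male WT and 53.2, 42.6 and 66.9 TPM in male KO. It was at 13.2, 0 and 37.2 TPM in female WT and 5.49, 9.17 and 34.8 TPM in female KO. In each of the 4 groups it was highest in the library where Pam16 was lowest, replicate 3. The sums of both genes were 126, 134 and 147 TPM in male WT and 136, 125 and 141 TPM in male KO, with 118, 121 and 123 TPM in female WT and 130, 143 and 130 TPM in female KO. On the sum, the male groups overlapped and the log2 fold change was −0.02 (95% confidence interval −0.18 to 0.15, adjusted p = 0.892 by limma). In females the sum was higher in KO by 0.16 without passing the test (95% confidence interval 0.05 to 0.27, adjusted p = 0.0796), and the interaction was −0.17 (adjusted p = 0.253). The fall of Pam16 in male KO is therefore not seen in the total of both genes, and their separate TPM cannot be told apart over the identical run. This sum was chosen after the data were seen. Pam16 also shares 455 exon bases with Glis2 on the opposite strand, which was lower in male KO (log2 fold change −0.40, adjusted p = 0.0117 by limma) and at 0.08 in females, and the part of Glis2 was not tested.

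**Figure D4:**
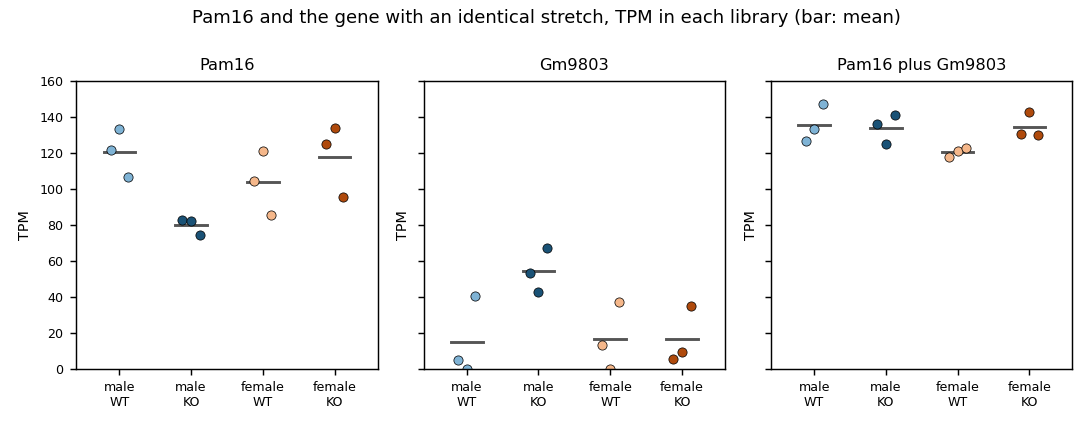
TPM (y axis, from 0, shared) of Pam16, of Gm9803 and of their sum in the 12 libraries, by group (x axis). Points are libraries and bars the mean of 3. Pam16 is lowest and Gm9803 highest in male KO, while the sums lie between 118 and 147 TPM in all 12 libraries and overlap between male WT and male KO.

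Timm17a and Timm17b are alternative partners of Timm23 in the inner membrane channel. Timm17a (ENSMUSG00000062580.9, chr1:135295213-135313778, minus strand of GRCm38) was at 229, 220 and 229 TPM in male WT and 206, 194 and 205 TPM in male KO. In females it was at 252, 223 and 258 TPM in WT and 217, 211 and 215 TPM in KO. KO libraries were below WT libraries in both sexes. Timm17a changed by −0.16 on the log2 scale in males (SE 0.040, adjusted p = 0.0267 by limma) and −0.19 in females (SE 0.057, adjusted p = 0.0880), so the female value did not pass although it was no smaller. The interaction was 0.02 (95% confidence interval −0.13 to 0.18). The male call was lost without male WT replicate 1 or 3 or male KO replicate 2 or 3 (adjusted p up to 0.0909). Timm17b, on X, was at 26.2, 37.3 and 35.9 TPM in male WT and 29.8, 39.8 and 47.2 TPM in male KO, and at 27.1, 29.0 and 29.6 TPM in female WT and 38.4, 36.6 and 31.1 TPM in female KO. It was above WT in all 3 female KO libraries but did not pass (log2 fold change 0.29, adjusted p = 0.0795 by limma), and the male groups overlapped. The share of Timm17a in the pair was 88.5% to 90.3% in female WT and 85.0% to 87.3% in female KO. In males it was 85.5% to 89.7% in WT and 81.3% to 87.4% in KO, which overlap.

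Grpel1 and Grpel2 exchange the nucleotide on the motor's Hsp70. Grpel1 was at 34.2, 33.2 and 33.3 TPM in male WT and 30.8, 32.2 and 29.1 TPM in male KO, with 29.9, 27.4 and 30.2 TPM in female WT and 28.7, 31.0 and 29.7 TPM in female KO. Grpel2 was at 13.3, 14.4 and 15.3 TPM in male WT and 11.6, 12.3 and 13.2 TPM in male KO, with 14.7, 14.2 and 14.7 TPM in female WT and 14.7, 14.5 and 15.0 TPM in female KO. Both were lower in all male KO libraries than in male WT without passing the test (log2 fold changes −0.12 and −0.20, adjusted p = 0.195 and 0.164 by limma), and the female groups overlapped. Grpel1 made up between 65.8% and 72.6% of the pair in the 12 libraries. The channel Timm23, its receptor Timm50, the tether Timm44 and Timm21 did not pass in either sex, with log2 fold changes from −0.12 to 0.003 in males and from −0.14 to 0.12 in females.

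The peptidase that removes presequences is built from Pmpca, which binds them, and Pmpcb, which cuts. Pmpca (ENSMUSG00000026926.14, chr2:26389339-26397122, plus strand of GRCm38) was at 104, 98.4 and 94.8 TPM in male WT and 77.7, 89.5 and 85.5 TPM in male KO. In females it was at 101, 101 and 101 TPM in WT and 89.6, 94.6 and 93.2 TPM in KO. KO libraries were below WT libraries in both sexes. Pmpca changed by −0.23 on the log2 scale in males (SE 0.065, adjusted p = 0.0434 by limma) and by −0.12 in females (SE 0.035, adjusted p = 0.0701). Pmpca passed in males only without male KO replicate 2, with an adjusted p of up to 0.124 without another library. Pmpca shares 874 exon bases with Inpp5e on the opposite strand, whose values were 0.03 in males and −0.04 in females on the log2 scale.

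Pmpcb (ENSMUSG00000029017.13, chr5:21737141-21757152, plus strand of GRCm38) was at 96.0, 84.2 and 89.4 TPM in male WT and 77.4, 76.0 and 79.8 TPM in male KO. Female libraries were at 86.2, 81.6 and 86.9 TPM in WT and 85.4, 89.3 and 96.4 TPM in KO. The male KO libraries were the lowest of the 12, and the female groups overlapped. The log2 fold change was −0.21 in males (SE 0.058, adjusted p = 0.0449 by limma) and 0.09 in females (SE 0.054, adjusted p = 0.352), and the interaction of −0.29 passed (SE 0.081, adjusted p = 0.0339). Pmpcb passed in males only without male WT replicate 2, with an adjusted p of up to 0.111 otherwise, and the interaction was lost without 9 of the 12 libraries in turn (adjusted p up to 0.0801), the exceptions being male WT replicate 2, male KO replicate 3 and female KO replicate 1. Pmpca made up 53.7% to 55.3% of the 2 subunits in female WT and 49.2% to 51.5% in female KO. In males it made up 51.5% to 53.9% in WT and 50.1% to 54.1% in KO, which overlap.

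**Figure D5:**
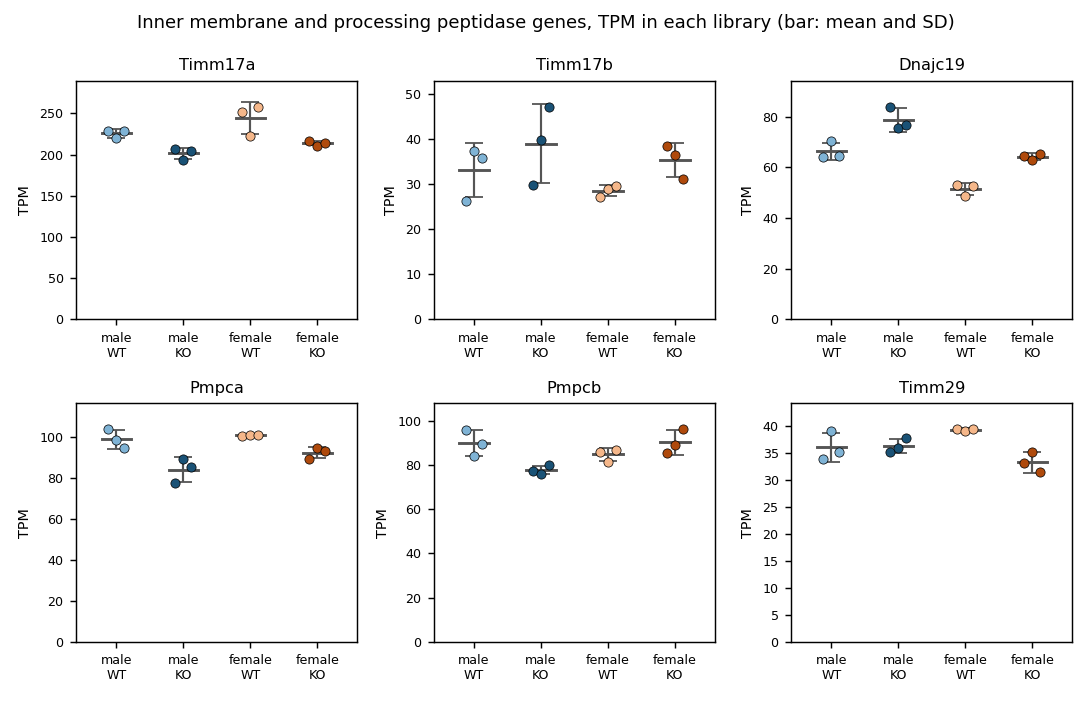
TPM (y axis, from 0) of Timm17a, Timm17b, Dnajc19, Pmpca, Pmpcb and Timm29 in the 12 libraries, by group (x axis). Points are libraries and bars the mean and SD of 3. Dnajc19 is higher in KO in both sexes, Timm17a and Pmpca points lie lower in KO in both sexes, though they passed the test in males alone, and Timm29 is lower in female KO.

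Among the TIM22 genes and small TIM chaperones, none of 8 passed in males, where 10.9% of all genes tested were lower and 10.7% higher. In females 1 of the 8 fell, where 5.84% of all genes tested were lower and 5.63% higher. In males 1 of the 8, Timm13 at −0.15, had an unadjusted p under 0.05, as had 4383 of all 12504 genes tested. Timm29 (ENSMUSG00000048429.10, chr9:21592722-21595970, plus strand of GRCm38), a subunit that holds the TIM22 complex together, was at 39.4, 39.0 and 39.4 TPM in female WT and 33.1, 35.2 and 31.4 TPM in female KO. Male libraries were at 33.8, 39.1 and 35.1 TPM in WT and 35.1, 35.9 and 37.7 TPM in KO. The female groups did not overlap and the male groups did. The log2 fold change was −0.24 in females (SE 0.056, adjusted p = 0.0408 by limma) and 0.01 in males (SE 0.071, adjusted p = 0.925), and the interaction of 0.25 did not pass (adjusted p = 0.0955), so the fall is not shown to differ between the sexes. The female call was kept only without female KO replicate 2, with an adjusted p of up to 0.114 without another library.

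Timm8a1, on X and the mouse gene of deafness-dystonia syndrome, and Timm8b pair with Timm13 in the intermembrane space. Timm8a1 lay at 62.9, 64.6 and 62.2 TPM in male WT, 63.5, 65.7 and 61.5 TPM in male KO, 65.1, 62.6 and 61.1 TPM in female WT and 64.6, 61.3 and 69.0 TPM in female KO. Timm8b was at 188, 171 and 173 TPM in male WT and 168, 182 and 163 TPM in male KO, with 235, 189 and 216 TPM in female WT and 181, 197 and 191 TPM in female KO. Neither passed between KO and WT. Timm8b was lower in male WT than in every female WT library, at a log2 fold change of −0.26 that did not pass (adjusted p = 0.0867 by limma). A run of 612 bases of Timm8a1 is identical in the transcribed pseudogene Gm9797, which had a mean of 89.3 TPM, and the sum of both lay between 128 and 169 TPM, which gave −0.12 in males and 0.03 in females on the log2 scale and passed in neither. The remaining TIM22 genes (Timm22, Timm9, Timm10, Timm10b and Timm13) had log2 fold changes from −0.15 to 0.14 in males and from −0.14 to 0.18 in females.

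No gene of the SAM complex (Samm50, Mtx1, Mtx2) or of the MIA relay (Chchd4, Gfer) passed between KO and WT in either sex by limma. Of all genes tested, 10.9% were lower and 10.7% higher in males, and 5.84% and 5.63% in females. In males 4383 of all 12504 genes tested had an unadjusted p under 0.05, and so had 1 of 3 SAM and 1 of 2 MIA genes. The 2 were Mtx1, an outer membrane subunit of the SAM complex (log2 fold change −0.19, adjusted p = 0.0677), and Chchd4 (−0.26, adjusted p = 0.0626). Chchd4 was at 14.0, 14.6 and 13.6 TPM in male WT and 11.4, 11.2 and 12.3 TPM in male KO, while female libraries ran from 13.4 to 15.0 TPM. Gfer, the oxidase that recharges Chchd4, had log2 fold changes of 0.01 and −0.09. A run of 573 bases of Gfer matches Dst on chromosome 1 (mean 49.9 TPM) at 99.8% identity. The run makes up 21% of the Dst transcript, under the 50% set for a copy, so Dst was not summed. The part of Dst in the Gfer values was not tested.

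Over both sexes, the interaction passed for 2 of the 34 genes, Pam16 and Pmpcb, both with a lower value in males, where 6.33% of all genes tested were lower and 6.70% were higher. With the identical copies added to their genes it passed for 1, Pmpcb. Between male WT and female WT only Dnajc19 passed, higher in males by 0.36 (SE 0.057, adjusted p = 0.00782 by limma), where 6.26% of all genes tested were higher and 6.56% were lower. Between male KO and female KO, Dnajc19 was higher in males by 0.29 (SE 0.054, adjusted p = 0.0127 by limma), and Pam16, Pmpcb and Tomm70a were lower (−0.55, −0.21 and −0.14, adjusted p = 0.0257, 0.0409 and 0.0464). Of all genes tested, 8.17% were higher and 8.39% lower in that comparison. The Pam16 difference was −0.01 on the sum with Gm9803 (adjusted p = 0.962), and on Pam16 alone it was kept only without female KO replicate 3 (adjusted p up to 0.0903 otherwise). Both Dnajc19 calls held without any 1 library, whereas the Tomm70a call was lost without any 1 of the 6 (adjusted p up to 0.134), and the Pmpcb call was kept only without female KO replicate 1 (adjusted p up to 0.104 otherwise).

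A list of 31 genes that work beside the import machinery was read from the same main fits. Whether its calls hold without a library or under the other alternatives was not tested. In males 6 were lower and 2 higher in KO, against 10.9% and 10.7% of all genes tested, and in females 6 were lower and 1 higher, against 5.84% and 5.63%. Of the cytosolic chaperones that carry precursors, 4 were lower in males: Hsp90aa1 at −0.31, Hsp90ab1 at −0.17 and the J-proteins Dnaja1 and Dnaja2 at −0.26 and −0.33 on the log2 scale. Hspa8, the cytosolic Hsp70 of the same group, was at −0.01 in males (adjusted p = 0.850 by limma) and 0.08 in females (adjusted p = 0.117). In females Hsp90aa1 and Hsp90ab1 were lower as well, both at −0.12. Hspa9, the Hsp70 of the import motor, fell in females (−0.12, adjusted p = 0.0259 by limma) and was at 0.07 in males (adjusted p = 0.119). Within the list, the interaction passed for Hspa9 (0.19, adjusted p = 0.00262 by limma) and Dnaja1 (−0.20, adjusted p = 0.0175). Dnaja1 and Dnaja2 were at −0.06 and −0.04 in females (adjusted p = 0.288 and 0.798 by limma). Of all genes tested, 6.70% were higher and 6.33% lower in the interaction. Pitrm1, the peptidase that degrades cleaved presequences, fell in both sexes by like amounts (−0.31 in males, adjusted p = 0.00154, and −0.33 in females, adjusted p = 0.00663 by limma). Immt, of the MICOS complex that shapes cristae and docks TOM, was lower in males (−0.16, adjusted p = 0.0457 by limma). Minos1, of the same complex, was higher in males (0.20, adjusted p = 0.0435 by limma). Their female values had the same signs without passing (−0.15 and 0.13, adjusted p = 0.119 and 0.206 by limma). Apoo, also of MICOS, was higher in females (0.37, adjusted p = 0.0136 by limma) and at 0.14 in males (adjusted p = 0.169). Dnajc11, a partner of the MICOS complex, was lower in females (−0.24, adjusted p = 0.0497 by limma) and at −0.10 in males (adjusted p = 0.378). Of the outer membrane channels, Vdac3 was higher in males (0.18, adjusted p = 0.0172 by limma) and at 0.10 in females (adjusted p = 0.0625). Vdac2 was lower in females (−0.17, adjusted p = 0.0222 by limma) and at −0.10 in males (adjusted p = 0.138). The interaction passed for none of these MICOS, partner and channel genes, so their changes are not shown to differ between the sexes. The median log2 fold change of the list was −0.04 in males and −0.003 in females, against −0.02 for all genes tested in each sex.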

How the data were processed

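RNA of 12 libraries of immortalized MEFs was sequenced, 3 in each group. The authors quantified reads with Salmon (version 1.10.1 in the submitters' processing notes) against GRCm38 and deposited TPM values per gene, with versioned Ensembl identifiers. Symbols, positions and transcripts came from GENCODE M21, to which 99.4% of the identifiers matched. The read depth behind them cannot be recovered, and counting error is not shown.

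Because TPM are no counts, log2(TPM + 1) was fitted by limma 3.58.1 (R 4.3.3, moderated with an intensity trend). The 12504 genes that averaged 1 TPM or more across all libraries entered each fit. Pairwise comparisons used 6 libraries and the interaction 12. P-values were adjusted over all genes tested (Benjamini-Hochberg) and called under 0.05, with no fold threshold. Fold changes are on this log2 scale, which understates those of low genes. On simulated data of 12504 genes with 200 changed, at least 71.5% were recovered at a log2 change of 1 and 29.5% at 0.5, in the comparison with the lowest recovery.

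The members, lists and rules were chosen with earlier results of these data known. Library values are given for members past the threshold in 1 of the 5 comparisons or in a paralog pair, and other members by ranges. Near-identical copies were genes elsewhere in the genome that matched a member's transcript by blastn 2.17.0 at 90% identity or more over at least 200 bases and 50% of the copy. There were 21, for 10 members, of which 3 had a mean of at least 1 TPM. Alternatives were a pseudocount of 0.1, no filter or a filter at 5 TPM, quantile normalization or median-of-ratios scaling, no trend, a single fit of all libraries, a block for the replicate number, leaving out each library, and, added later, summing the copies.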

Additional observations from a re-analysis of the deposited data

Results flagged for a closer look

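Of all genes tested, 6.33% were lower and 6.70% higher in the interaction. This difference between the male and female KO effects passed the test for 2 of the 34 import genes tested, which flagged them. For Pam16 it was −0.77 on the log2 scale (adjusted p = 0.0257 by limma, 12 libraries), with a lower value in male KO and a higher mean in female KO. On the sum of Pam16 and Gm9803, whose transcripts share 534 identical bases, it was −0.17 (adjusted p = 0.253). For Pmpcb it was −0.29 (adjusted p = 0.0339 by limma, 12 libraries), and no near-identical copy of Pmpcb was found. Both calls were lost when all genes above 0 were tested.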

How the results depend on the processing

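Of 18 member results past the threshold, 4 (Dnajc19 in females and between the sexes in each genotype, and Pam16 in males) passed under every alternative set at the start, and none changed sign. A pseudocount of 0.1 and a mean of at least 5 TPM changed no call. The other alternatives moved the number of import genes called, and the cause was not tested. In males it was 9, and 4 with no filter on low values, 5 with median-of-ratios scaling, 3 with no mean-variance trend, 11 with all libraries in one fit and from 2 (without male WT replicate 3) to 7 without 1 library. Of all genes, 2707 of 12504 were called in the main fit, 2335 of 22401 with no filter and 2683 of 12502 with median-of-ratios scaling. With no trend 2316 of 12504 were called, in one fit 3306, and without 1 library from 1813 to 2318. In females the number of import genes called was 2, and 1 with median-of-ratios scaling, quantile normalization or no mean-variance trend, 3 with all libraries in one fit, and from 1 to 2 without 1 library. Of all genes, 1434 of 12504 were called in the main fit, 1418 of 12502 with median-of-ratios scaling and 1421 of 12504 with quantile normalization. With no trend 1141 of 12504 were called, in one fit 1711, and without 1 library from 774 to 835. For the interaction the number of import genes called was 2, and 0 by limma with no filter on low values (10 at an unadjusted p under 0.05), 1 with quantile normalization or no mean-variance trend, and from 0 (without female WT replicate 3) to 3 without 1 library. Of all genes, 1629 of 12504 were called in the main fit and 1563 of 22401 with no filter. With quantile normalization 1695 of 12504 were called, with no trend 1529, and without 1 library from 1353 to 1559. Between male WT and female WT the number of import genes called was 1, and 4 with all libraries in one fit, and from 1 to 4 without 1 library. In the main fit 1603 of all 12504 genes were called there. Between male KO and female KO the number of import genes called was 4, and 2 with no filter on low values, 1 with no mean-variance trend, 6 with all libraries in one fit, and from 1 to 3 without 1 library. In the main fit 8.17% of all genes tested were higher and 8.39% lower there. The shares of all genes under the alternatives are not given for the comparisons between the sexes.

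Identical copies summed, an alternative chosen after the data were seen, gave 8, 2, 1, 1 and 3 calls in the same order, with the Pam16 calls lost. With the replicate number as a block the counts were 5, 1, 3, 4 and 2. Under that block 2366 of all 12504 genes were called in males, 670 in females and 1518 for the interaction. Across genes, libraries with the same number deviated from their groups with correlations of −0.06 to 0.08, so the numbers were not taken to pair the libraries.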

Other observations

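Gm45799, a gene listed as protein-coding that overlaps Timm10b on the same strand over 3086 bases and shares 376 exon bases with it, had a log2 fold change of −2.28 between female KO and female WT (adjusted p = 0.00964 by limma) and 0.23 between male KO and male WT (adjusted p = 0.707). Timm10b itself had 0.14 in females and 0.10 in males and did not pass in either sex.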
